A study of Mus musculus with 8 samples.

Results

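The insulin, PI3K, AKT and mTOR module was followed through 33 genes, found by their symbols among the 55157 genes of the deposited expression table. It runs from the insulin receptor and its adaptor proteins through phosphoinositide 3-kinase (PI3K), AKT and the FOXO transcription factors to the complexes built on the kinase mTOR. Messenger RNA had been profiled from type 7 to 8 follicles, taken from ovaries of Kunming mice at postnatal day 21. Such follicles are at a late stage of growth and hold an oocyte and granulosa cells. Kunming is an outbred stock. Every mouse had received pregnant mare serum gonadotropin (PMSG, which acts on the receptor for follicle-stimulating hormone, FSH) 24 h earlier. The control group had saline with it and the melatonin group had melatonin with it, with 4 libraries in each. All comparisons are therefore between 2 PMSG-stimulated groups, and no unstimulated follicles entered them. The labels do not say whether a library stands for 1 animal or for pooled follicles, and p-values here cover the spread among those libraries, which may be technical. Levels are given as FPKM, the fragments assigned to a gene divided by its exon length and by the library's mapped total, so a level says how a gene stands among the others of its library. In whole follicles, fewer cells of a type and less RNA per cell cannot be told apart.

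Insulin and insulin-like growth factors bind receptor tyrosine kinases, which phosphorylate IRS adaptors. These recruit PI3K, whose lipid product brings PDK1 and AKT to the membrane. AKT then phosphorylates FOXO factors, which leave the nucleus, and inactivates the TSC complex, which frees the small GTPase Rheb to activate mTOR complex 1 (mTORC1) and with it protein synthesis. A second complex, mTORC2, phosphorylates AKT and SGK kinases. In the ovary the pathway is known for holding or releasing dormant oocytes through FOXO3, and for carrying part of the FSH signal in granulosa cells, where FOXO1 is abundant. These steps act largely through phosphorylation, which messenger RNA levels do not measure.

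The libraries held 17451111 to 22034312 implied fragments in control and 18553187 to 23649205 in melatonin, read back from the FPKM steps. Granulosa markers, 7 of 7 detected in every library, summed to 6927 to 8687 FPKM in controls and 5901 to 6564 FPKM under melatonin, and all 9 oocyte markers were detected, at sums of 317 to 498 FPKM in controls and 304 to 397 FPKM under melatonin. Markers of the theca summed to 52.99 to 60.8 FPKM in controls and 30.8 to 56.7 FPKM under melatonin, where melatonin replicate 4 held the highest sum and the other 3 melatonin libraries were at 30.8 to 32.4 FPKM. Its Cyp17a1, an androgen-synthesis enzyme of theca cells, was at 20.4 FPKM against 3.26 to 7.54 FPKM in those 3. Its Cyp11a1 was at 17.5 FPKM against 7.44 to 8.25 FPKM, and its Star at 2.64 FPKM against 2.497 to 2.55 FPKM. The rest of the theca list did not follow. Gli1 was lowest in melatonin replicate 4, at 0.827 FPKM against 0.906 to 1.02 FPKM, and Ptch1 and Insl3 lay within the range of those 3. Markers of surface epithelium summed to 36.1 to 50.7 FPKM in controls and 28.1 to 34.6 FPKM under melatonin, of stroma to 17.5 to 39.8 FPKM in controls and 12.4 to 24.5 FPKM under melatonin and of endothelium to 6.12 to 9.38 FPKM in controls and 4.86 to 7.303 FPKM under melatonin. The granulosa and surface epithelium sums did not overlap between the groups and were lower in melatonin. Most of the granulosa sum was Inha, with a mean of 6597 FPKM in controls and 5445 FPKM under melatonin. Inha and Hsd17b1 did not overlap between the groups, while Amh, Foxl2, Fshr and Cyp19a1, lower on average, did. Nr5a2 went the other way, with means of 171 FPKM in controls and 181 FPKM under melatonin. Control replicate 3 stood apart in other markers. Its red blood cell sum was 1529 FPKM, against 63.8 to 879 FPKM in the other controls and 123 to 473 FPKM in melatonin, and 1 of these 4 genes, Hba-a2, was at 0 in control replicate 1. Its leukocyte sum was 14.6 FPKM against 5.23 to 9.28 FPKM in the other 7 libraries, and its Cyp19a1 (aromatase) level was 22.99 FPKM against 2.404 to 11.6 FPKM. What part these differences in makeup have in the results was not tested, and differences that move by over 1.5 times or change sign without control replicate 3 are given both ways.

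Of the 33 genes, 32 reached the filter for testing, an average of 1 FPKM or more across all 8 libraries. Sgk3, a kinase related to AKT, was the exception, at 0.704 to 0.883 FPKM. FPKM is per length of transcript, so levels can be set beside each other. Foxo1 was the highest of the 33, at 126 ± 16.1 FPKM in controls and 122 ± 5.96 FPKM under melatonin (SD, n = 4 in each group here and below). After it came Pik3ip1 at 42.5 ± 6.14 FPKM in controls and 59.7 ± 5.23 FPKM under melatonin, Akt1 at 44.6 ± 2.72 FPKM in controls and 42.5 ± 1.73 FPKM under melatonin and Pik3r1 at 34.04 ± 9.79 FPKM in controls and 40.5 ± 7.19 FPKM under melatonin. Eif4ebp2, Eif4ebp1, Akt1s1 and Gsk3a followed, between 29.2 and 34.7 FPKM as means over all 8 libraries. The ranges over libraries of these 7 genes overlap in part, that of Pik3r1 with all the others, so most of their order is not resolved. At the low end were Phlpp1, Deptor, Pik3cb and Pik3r3, with means of 3.497, 3.88, 1.98 and 1.86 FPKM. The median of the 32 tested genes was 12.4 FPKM, beside 6.96 FPKM over all 14738 genes tested, and their median coefficient of variation over the 8 libraries was 9.04%, beside 11.9%.

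**Figure D1:**
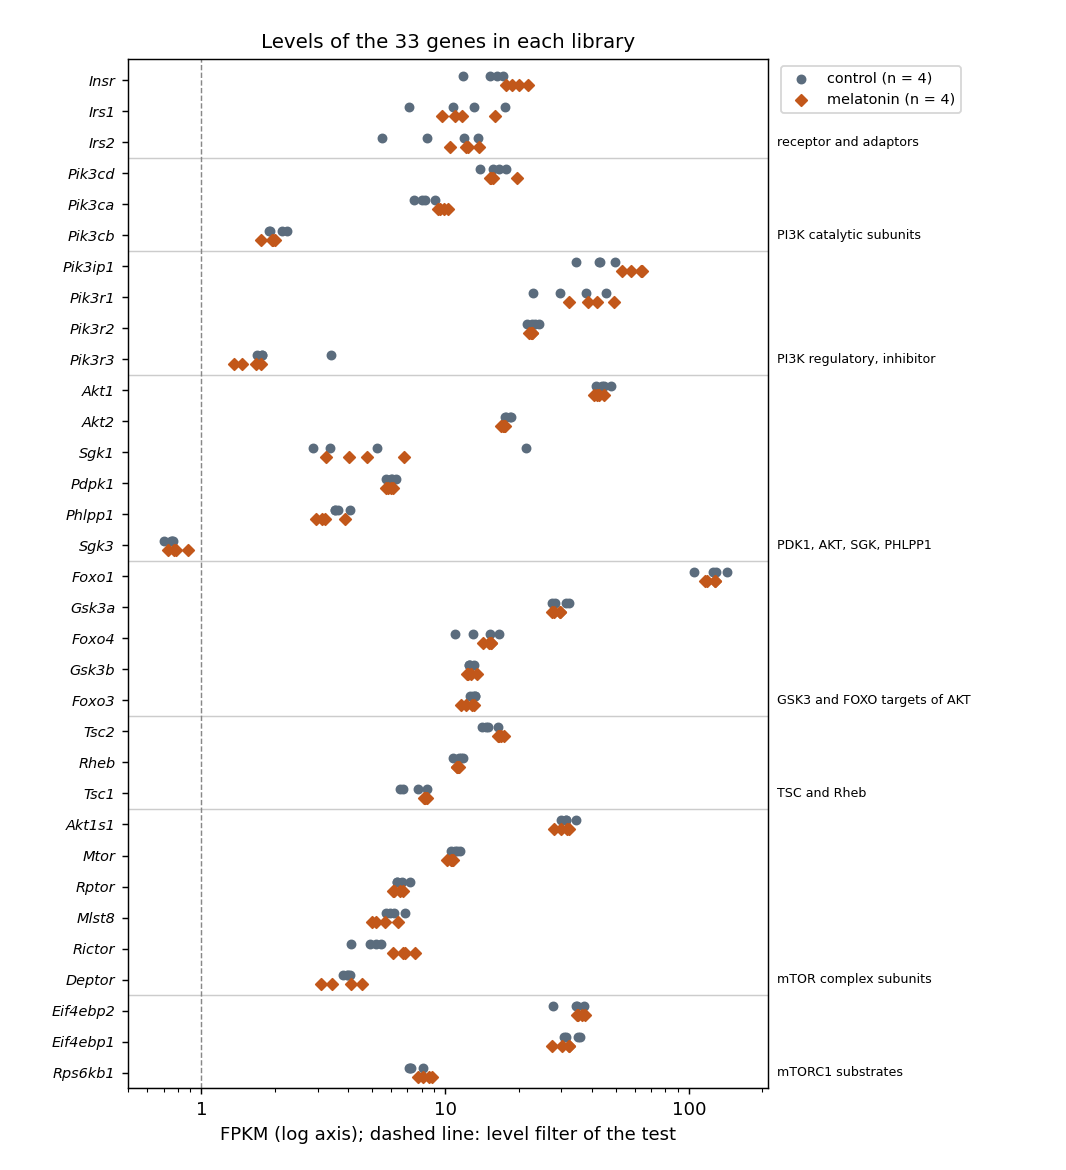
FPKM (log axis) of the 33 genes, grouped by role, with 1 point per library for the 4 control and 4 melatonin libraries and a dashed line at the 1 FPKM filter. Foxo1 lies above all others, Sgk3 lies below the filter, and 1 control point of Sgk1 and 1 of Pik3r3, both control replicate 3, lie far from their groups.

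No gene of the module passed an adjusted p of 0.05 in limma's test of melatonin against control (0 of 32; 0% of all genes tested passed in either direction), and the smallest adjusted p among them was 0.121. With limma-voom on fragment counts read back from the FPKM, it was 0 of 31. At an unadjusted p under 0.05, 6 of the 32 were higher in melatonin (Insr, Pik3ca, Pik3ip1, Tsc2, Rictor and Rps6kb1), where the share over all genes tested was 9.4%. None was lower at that level, where the share over all genes was 9.74%. In 4 of the 32 (Insr, Pik3ca, Pik3ip1 and Rictor) every melatonin value lay above every control value, beside 5.79% of all genes, and in none did every value lie below, beside 5.94% of all genes. The median difference of the 32 was -0.025 on the log2 scale, beside -0.010 for all genes, with 14 positive and 18 negative, and 47.5% of all genes positive. The differences spanned -0.32 to 0.49. All differences are log2 of (FPKM + 1), melatonin minus control, which understates those of low genes. Genes of the module were long, with a median of 7382 exon bases against 3682 for all tested genes, and differences correlated with exon length at a Spearman coefficient of 0.43 over the 32 genes and 0.12 over 14392 genes, across genes that are not independent replicates. With GC content at a median of 52.0% against 49.4%, the coefficient was -0.20 over the 32 and -0.26 over all. After trends with GC content and length were removed in each library, 4 of the 32 were higher at an unadjusted p under 0.05 (Insr, Pik3ip1, Tsc2 and Rictor), beside 8.3% of all genes, and none was lower, beside 9.06%. Without control replicate 3 it was 5 of 32 higher, all but Rps6kb1, beside 7.21%, and none lower, beside 7.57%. Without melatonin replicate 4 it was 5 of 32 higher (Insr, Pik3ca, Pik3ip1, Rictor and Rps6kb1), beside 7.45%, and 1 lower (Phlpp1), beside 7.93%.

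**Figure D2:**
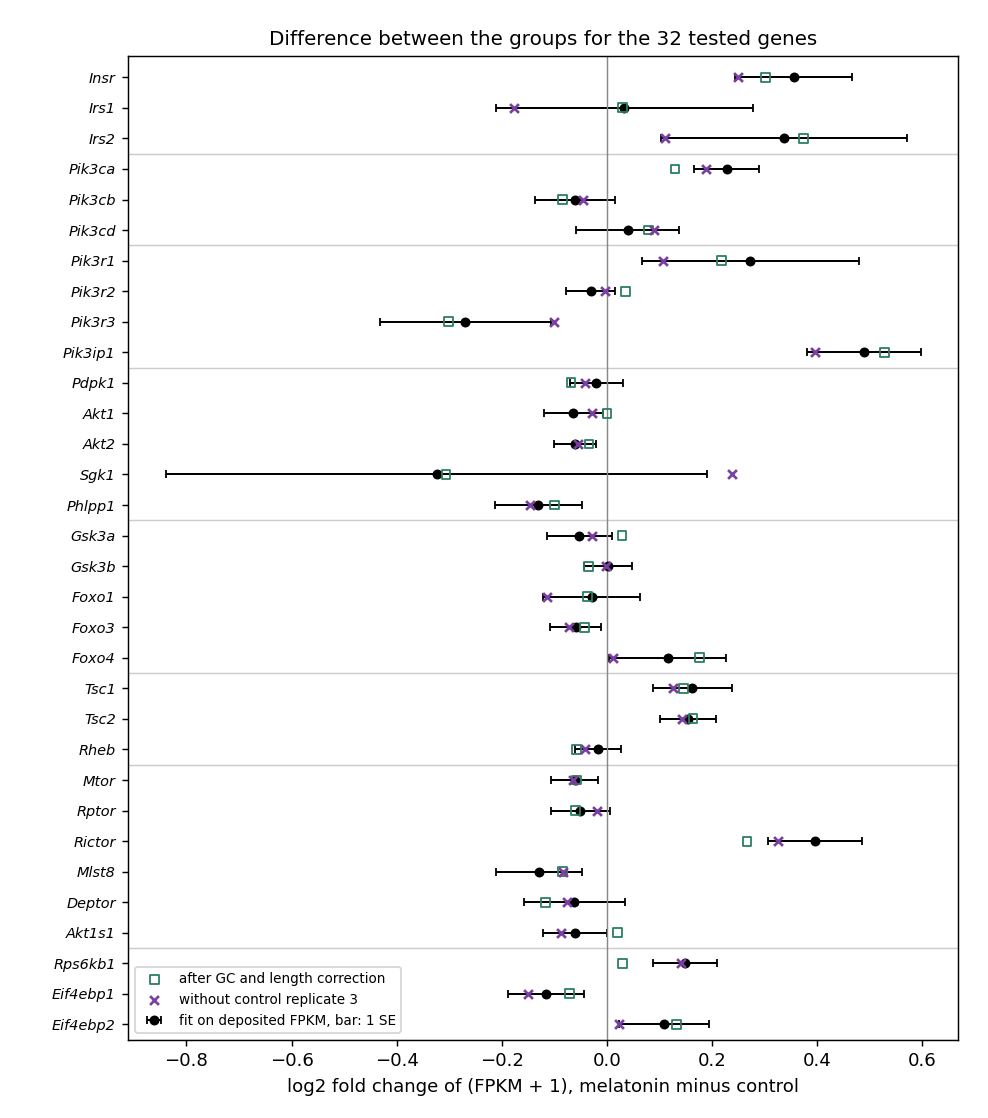
Difference between melatonin and control (log2 of FPKM + 1) for each of the 32 tested genes, as fitted with its standard error (black), after removal of GC and length trends (squares) and without control replicate 3 (crosses). Pik3ip1, Rictor, Insr and Pik3ca lie to the right of 0 in all 3, and none passed the adjusted threshold. Irs2, Pik3r1, Pik3cd, Foxo4, Tsc1, Tsc2, Rps6kb1 and Eif4ebp2 lie there in all 3 as well.

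The insulin receptor and the IRS adaptors, which couple it to PI3K, open the pathway. Insr stood at 15.3, 16.3, 11.9 and 17.3 FPKM in control replicates 1 to 4 and at 20.1, 18.8, 17.7 and 21.8 FPKM in melatonin replicates 1 to 4. All melatonin libraries were above all controls, and control replicate 3 was the lowest. The mean was 15.2 ± 2.34 FPKM in controls and 19.6 ± 1.76 FPKM under melatonin, 1.29 times the control mean (0.35 ± 0.11 SE on the log2 scale), with an adjusted p of 0.168 in limma and 0.121 to 0.3502 over its alternatives. Without control replicate 3 the difference was 0.25. Insr (ENSMUSG00000005534) lies at chr8:3122061-3279617 on the minus strand of mm10.

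The adaptor genes Irs1 and Irs2 varied widely within the groups. Irs1 stood at 10.8, 13.1, 7.12 and 17.6 FPKM in control replicates 1 to 4 and at 9.69, 11.7, 10.9 and 15.97 FPKM in melatonin replicates 1 to 4. Irs2 was found at 8.41, 11.97, 5.48 and 13.7 FPKM in control replicates 1 to 4 and at 10.5, 12.4, 12.1 and 13.7 FPKM in melatonin replicates 1 to 4. For both, control replicate 3 was the lowest library and replicate 4 the highest of its group. The group difference was 0.033 ± 0.24 (SE) for Irs1 and 0.34 ± 0.23 for Irs2, with adjusted p of 0.955 and 0.456. Without control replicate 3 these became -0.18 and 0.11, so most of the size for Irs2 rests on 1 library. The sign for Irs1 turned in 3 of 18 alternatives, this one among them. Opposite-strand exons of Gm9747 cover 30.9% of the exon bases of Irs1, and as the use of strand is not given, their fragments cannot be told apart.

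Both promoters are shown because the 2 adaptor genes shared their lowest library and the highest library of each group. Insr, Pik3ca, Pik3r1 and Eif4ebp2 had the same lowest library and the same highest library of each group, and their promoters are not shown. They come from RefSeq (GRCm38.p6, 250 bases before to 50 after the start site, 5′ to 3′ on the gene's own strand), which held a promoter for 28 of the 33 genes and not for Insr, Foxo4, Eif4ebp1, Deptor and Sgk3. Capitals mark the E-box CACGTG and the GC box GGGCGG, or CCGCCC on the other strand. Irs1 lies at chr1:82291390-82291689 and Irs2 at chr8:11008880-11009179, each on the minus strand. The Irs2 window lies wholly upstream of its GENCODE gene, which starts at chr8:11008458.
Irs1: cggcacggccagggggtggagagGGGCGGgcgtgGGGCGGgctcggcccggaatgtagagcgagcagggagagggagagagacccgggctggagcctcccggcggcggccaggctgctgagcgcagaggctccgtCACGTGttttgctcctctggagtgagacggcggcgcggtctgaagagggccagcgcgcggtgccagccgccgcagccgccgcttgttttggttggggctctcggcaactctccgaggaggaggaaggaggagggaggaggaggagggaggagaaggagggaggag
Irs2: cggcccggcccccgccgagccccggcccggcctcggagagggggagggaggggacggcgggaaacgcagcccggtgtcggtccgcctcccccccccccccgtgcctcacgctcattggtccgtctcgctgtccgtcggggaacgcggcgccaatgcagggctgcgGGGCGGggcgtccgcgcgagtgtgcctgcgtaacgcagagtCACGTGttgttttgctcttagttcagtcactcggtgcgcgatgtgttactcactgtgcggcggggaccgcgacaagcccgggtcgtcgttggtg
Searched on both strands, the E-box was present in 3 of the 28 promoters (Irs1, Irs2 and Rheb) and in 7.15% of 32851 RefSeq promoters of this length. The promoters of Pik3ca, Pik3r1 and Eif4ebp2, which share the library pattern of Irs1 and Irs2, did not hold it. The E-box begins at -115 in Irs1 and at -44 in Irs2, counted from the RefSeq start site. In both it is followed by the string ttttgctc, directly in Irs1 and after 3 bases in Irs2. Only these 2 of the 32851 promoters (0.00609%) held CACGTG followed within 3 bases by that string, a feature chosen after the sequences were seen. The GC box was in 18 of the 28 and in 35.7% of all promoters, the FOXO core TGTTTAC in 1 (Akt1) and in 3.65%, and the cAMP response element TGACGTCA in none of the 28 and in 1.79%. The 32851 promoters were not chosen to resemble the 28 in GC content or expression, so these shares do not mark the module. The motif matches describe the letters of the windows and no binding was measured.

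PI3K pairs a catalytic with a regulatory subunit. Of the catalytic genes, Pik3ca (p110 alpha), at chr3:32397671-32468486, was separated between the groups. Pik3ca stood at 8.24, 8.02, 7.47 and 9.06 FPKM in control replicates 1 to 4 and at 9.56, 9.89, 9.33 and 10.2 FPKM in melatonin replicates 1 to 4. All 4 melatonin values were above the controls. Means were 8.198 ± 0.661 FPKM in controls and 9.76 ± 0.401 FPKM under melatonin (1.19 times; difference 0.23 ± 0.062 SE), at an adjusted p of 0.148 in limma (0.0912 to 0.341 over its alternatives). After GC and length correction the difference was 0.13. Pik3cb (p110 beta) stood at 2.24, 1.89, 2.13 and 1.92 FPKM in control replicates 1 to 4 and at 1.75, 2.002, 1.95 and 1.97 FPKM in melatonin replicates 1 to 4. The groups overlapped, with a difference of -0.061. Pik3cd, whose product p110 delta is best known from leukocytes, stood at 13.9 to 19.7 FPKM (difference 0.039, or 0.089 without control replicate 3; adjusted p 0.8505), and its highest value was in melatonin replicate 4.

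Among the regulatory genes, Pik3r1, which encodes p85 alpha, was the most abundant. Pik3r1 stood at 29.6, 37.97, 23.03 and 45.5 FPKM in control replicates 1 to 4 and at 32.1, 38.5, 42.1 and 49.4 FPKM in melatonin replicates 1 to 4. Its control replicate 3 value was again the lowest and its groups overlapped (difference 0.27 ± 0.21 SE; adjusted p 0.496; 0.11 without control replicate 3). Pik3r2, p85 beta, was at 23.05 ± 1.17 FPKM in controls and 22.5 ± 0.337 FPKM under melatonin, with a difference of -0.031 that became 0.035 after GC and length correction and -0.00463 without control replicate 3. Pik3r3, p55 gamma, was at 3.39 FPKM in control replicate 3 and at 1.36 to 1.78 FPKM in the other 7 libraries, and 24.3% of its exon bases are shared with the same-strand gene model Gm49337. Its difference was -0.27, or -0.10 without that library.

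Pik3ip1 encodes a membrane protein that binds the PI3K catalytic subunit and lowers its activity. It had the largest difference of the 32 tested genes. Pik3ip1 stood at 42.7, 43.2, 34.6 and 49.5 FPKM in control replicates 1 to 4 and at 64.1, 57.6, 53.3 and 63.8 FPKM in melatonin replicates 1 to 4. The lowest melatonin value, 53.3 FPKM, was above the highest control value, 49.5 FPKM. The melatonin mean was 1.41 times the control mean (42.5 ± 6.14 FPKM in controls and 59.7 ± 5.23 FPKM under melatonin; difference 0.49 ± 0.11 SE), at an adjusted p of 0.121 in limma (0.07201 to 0.313 over its alternatives). By unadjusted p in limma, Pik3ip1 ranked 202 among the 14738 genes tested. The difference was 0.53 after GC and length correction and 0.40 without control replicate 3. The gene lies at chr11:3330401-3342971 on the plus strand. Its promoter window (chr11:3330481-3330780), shown for the gene with the largest difference, is set by the RefSeq start site, which lies downstream of the GENCODE start of the gene. It held none of the 4 motifs.
Pik3ip1: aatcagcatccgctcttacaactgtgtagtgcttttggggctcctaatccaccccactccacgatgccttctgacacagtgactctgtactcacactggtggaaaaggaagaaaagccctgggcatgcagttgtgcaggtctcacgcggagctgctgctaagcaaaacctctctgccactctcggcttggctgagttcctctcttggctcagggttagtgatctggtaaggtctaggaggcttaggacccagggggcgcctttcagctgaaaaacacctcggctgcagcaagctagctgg

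**Figure D3:**
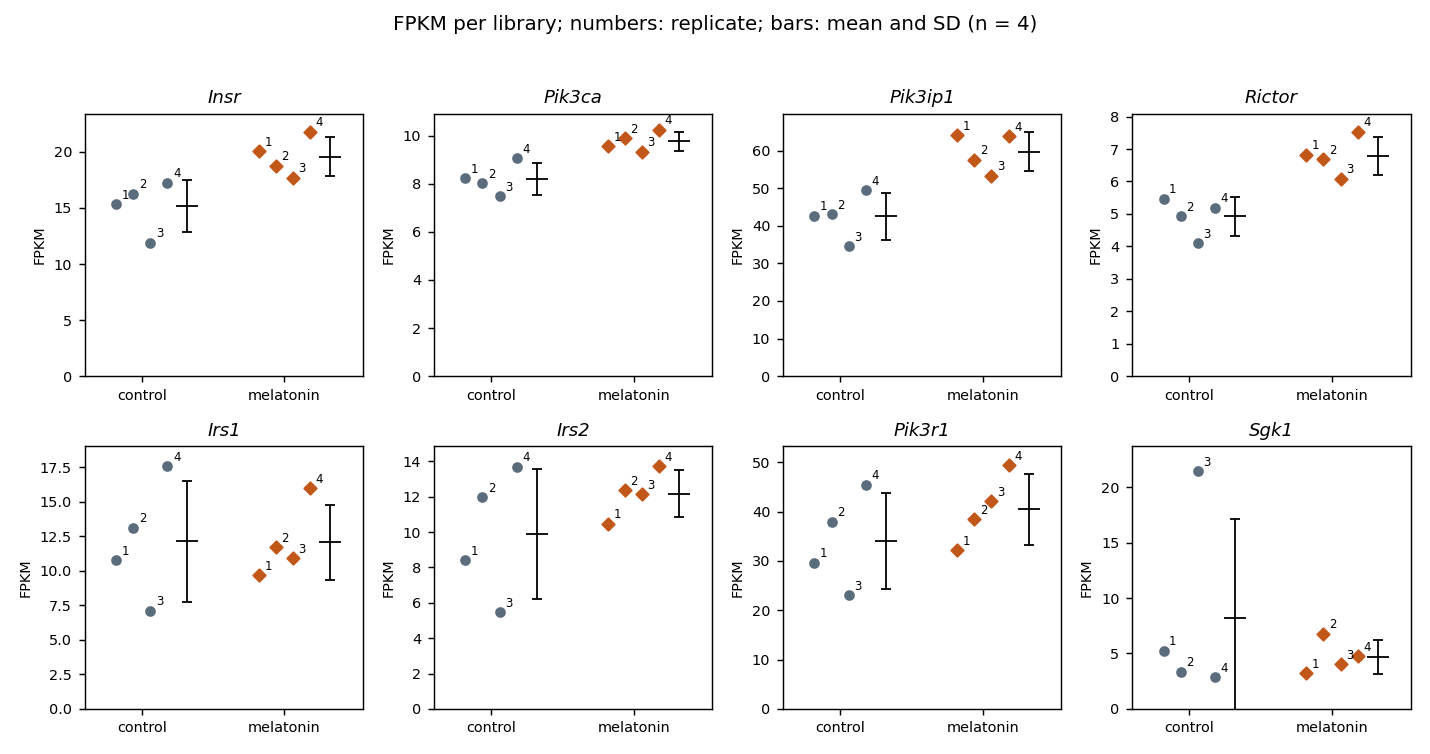
FPKM in each of the 8 libraries, numbered by replicate, for Insr, Pik3ca, Pik3ip1, Rictor, Irs1, Irs2, Pik3r1 and Sgk1, with group mean and SD; the axes start at 0 and the lower SD bar of Sgk1 in control is cut there. All melatonin points of Insr, Pik3ca, Pik3ip1 and Rictor lie above all control points, while the control mean of Sgk1 lies above 3 of its 4 points.

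None of the 5 tested genes for the kinases below PI3K and the AKT phosphatase had an unadjusted p under 0.05. Pdpk1, the kinase PDK1 that activates AKT and SGK, was at 6.01 ± 0.234 FPKM in controls and 5.91 ± 0.186 FPKM under melatonin (-0.020 ± 0.050 SE, or -0.042 without control replicate 3). Akt1 was at 40.8 to 47.95 FPKM over all libraries (-0.064 ± 0.055 SE, or -0.029 without control replicate 3) and Akt2 at 16.98 to 18.7 FPKM (-0.062 ± 0.040 SE). Phlpp1, a phosphatase that removes phosphate from AKT, was at 3.695 ± 0.253 FPKM in controls and 3.299 ± 0.417 FPKM under melatonin (-0.13 ± 0.083 SE). Sgk1, a kinase activated through mTORC2 and PDK1 and known as an FSH-responsive gene of granulosa cells, differed most between libraries. Sgk1 stood at 5.25, 3.37, 21.5 and 2.86 FPKM in control replicates 1 to 4 and at 3.24, 6.79, 4.05 and 4.77 FPKM in melatonin replicates 1 to 4. Control replicate 3 was 5.61 times the mean of the other controls, and the difference of -0.32 ± 0.51 turned to 0.24 without it.

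GSK3 kinases and FOXO factors are inactivated by AKT. Gsk3a was at 29.8 ± 2.29 FPKM in controls and 28.6 ± 1.16 FPKM under melatonin and Gsk3b at 12.7 ± 0.3003 FPKM in controls and 12.7 ± 0.548 FPKM under melatonin, with differences of -0.053 and 0.00196 that took the opposite sign after GC and length correction (0.029 and -0.035) and were -0.028 and -0.00114 without control replicate 3. Exons of an opposite-strand RNA gene cover 28.3% of Gsk3a. Foxo1 stood at 125, 129.6, 104 and 143 FPKM in control replicates 1 to 4 and at 117, 128, 118 and 127 FPKM in melatonin replicates 1 to 4. Control replicate 3 was lowest and control replicate 4 highest, the groups overlapped, and the difference was -0.029 ± 0.092 SE (adjusted p 0.886), or -0.11 without control replicate 3. Foxo3, the gatekeeper of dormant follicles, was at 13.01 ± 0.279 FPKM in controls and 12.5 ± 0.652 FPKM under melatonin (-0.059 ± 0.049 SE). Foxo4 was at 13.97 ± 2.49 FPKM in controls and 15.05 ± 0.5097 FPKM under melatonin (0.12 ± 0.11 SE, or 0.012 without control replicate 3). None of these 5 had an unadjusted p under 0.05.

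The TSC complex is the brake on Rheb. Tsc2 stood at 14.1, 15.03, 14.7 and 16.5 FPKM in control replicates 1 to 4 and at 16.99, 16.4, 16.6 and 17.5 FPKM in melatonin replicates 1 to 4. Tsc2 encodes the subunit that acts on Rheb, and its groups touched, as control replicate 4 exceeded the lowest melatonin value. The difference was 0.15 ± 0.053 SE (adjusted p 0.188 in limma, 0.1096 to 0.373 over its alternatives; 0.16 after GC and length correction). The last exons of Tsc2 (chr17:24595816-24632630) share 7.2% of its exon bases with the opposite-strand gene Pkd1. Tsc1, which stabilises TSC2, was at 7.34 ± 0.8797 FPKM in controls and 8.29 ± 0.102 FPKM under melatonin (0.16 ± 0.075 SE; adjusted p 0.283), and Rheb at 11.4 ± 0.453 FPKM in controls and 11.3 ± 0.114 FPKM under melatonin (-0.017 ± 0.044 SE, or -0.042 without control replicate 3).

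Of the 6 genes for mTOR complex subunits, Rictor, which defines mTORC2, had the largest difference. Rictor stood at 5.47, 4.92, 4.099 and 5.19 FPKM in control replicates 1 to 4 and at 6.82, 6.69, 6.08 and 7.53 FPKM in melatonin replicates 1 to 4. The lowest melatonin value was above the highest control value. Means were 4.92 ± 0.593 FPKM in controls and 6.78 ± 0.593 FPKM under melatonin, 1.38 times the control (0.40 ± 0.089 SE), at an adjusted p of 0.121 in limma and 0.0603 to 0.313 over its alternatives, the lowest that any gene of the module reached. The 0.0603 came from limma-voom, where it was also the smallest adjusted p over all 13748 genes. By unadjusted p in limma, Rictor ranked 223 among the 14738 genes tested. The difference was 0.27 after GC and length correction and 0.33 without control replicate 3. Rictor lies at chr15:6708379-6800401 on the plus strand. Its promoter window (chr15:6708131-6708430), shown for the gene with the next largest difference after Pik3ip1, holds 4 GC boxes.
Rictor: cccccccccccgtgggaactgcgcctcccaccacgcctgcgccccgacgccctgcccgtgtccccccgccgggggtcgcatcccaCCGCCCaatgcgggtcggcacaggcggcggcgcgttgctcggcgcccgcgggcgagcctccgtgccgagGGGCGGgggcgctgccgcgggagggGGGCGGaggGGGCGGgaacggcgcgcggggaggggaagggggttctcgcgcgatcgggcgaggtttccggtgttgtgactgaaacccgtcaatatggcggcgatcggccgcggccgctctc
Rptor stood at 6.35, 6.67, 7.16 and 6.36 FPKM in control replicates 1 to 4 and at 6.11, 6.16, 6.69 and 6.51 FPKM in melatonin replicates 1 to 4. Rptor defines mTORC1, and its groups overlapped (-0.051 ± 0.056 SE, or -0.019 without control replicate 3). Mtor itself was at 11.1 ± 0.396 FPKM in controls and 10.6 ± 0.2803 FPKM under melatonin (-0.062 ± 0.045 SE). Mlst8, shared by both complexes, was at 6.17 ± 0.4898 FPKM in controls and 5.57 ± 0.617 FPKM under melatonin (-0.13 ± 0.081 SE, or -0.084 without control replicate 3), with 22.5% of its exon bases shared with the opposite-strand gene Bricd5. Deptor, an inhibitor of both complexes, was at 3.97 ± 0.108 FPKM in controls and 3.79 ± 0.6497 FPKM under melatonin (-0.062 ± 0.10 SE), and Akt1s1, the mTORC1 inhibitor PRAS40, was at 31.7 ± 1.84 FPKM in controls and 30.4 ± 1.8996 FPKM under melatonin (-0.061 ± 0.061 SE).

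The mTORC1 substrates control translation. Rps6kb1 encodes the S6 kinase S6K1. Rps6kb1 stood at 8.09, 7.09, 7.27 and 7.17 FPKM in control replicates 1 to 4 and at 8.59, 8.11, 8.82 and 7.72 FPKM in melatonin replicates 1 to 4. Control replicate 1 lay within the melatonin range. Its difference of 0.15 ± 0.061 SE had an adjusted p of 0.238 in limma (0.1599 to 0.828 over its alternatives), and was 0.030 after GC and length correction. Eif4ebp1 and Eif4ebp2 encode repressors that hold the cap-binding factor eIF4E until mTORC1 phosphorylates them. Eif4ebp1 stood at 35.1, 31.2, 30.8 and 35.8 FPKM in control replicates 1 to 4 and at 30.2, 32.1, 27.5 and 32.3 FPKM in melatonin replicates 1 to 4. Eif4ebp2 was measured at 34.4, 34.7, 27.7 and 37.1 FPKM in control replicates 1 to 4 and at 34.996, 36.6, 34.7 and 37.6 FPKM in melatonin replicates 1 to 4. Neither gene separated the groups by itself, with differences of -0.12 ± 0.072 and 0.11 ± 0.085 (SE). Control replicate 3 was the lowest library for Eif4ebp2, whose difference was 0.022 without it.

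Related genes were also compared with each other within each library. For 10 pairs, 9 of paralogs or complex partners and Rptor with Rictor, the difference of log2 (FPKM + 1) values, here called the log2 ratio, was compared by an exact permutation test, two-sided, over 70 assignments, whose smallest p is 0.0286. The added 1 makes it smaller than the log2 of the plain FPKM ratio for low genes. The Rptor to Rictor ratio of FPKM was 1.16, 1.36, 1.75 and 1.22 in control replicates 1 to 4 and 0.897, 0.921, 1.1002 and 0.865 in melatonin replicates 1 to 4. Each control ratio was above each melatonin ratio, and the ratio exceeded 1 in all controls and in 1 of 4 melatonin libraries. Its place relative to 1 depends on the exon lengths used. Rictor was apart between the groups by itself (0.40, against -0.051 for Rptor), so the ratio largely restates its difference. The log2 difference of the ratio was -0.45 (-0.52 with 0.1 added in place of 1; exact p 0.0286, adjusted over the 10 pairs 0.0952). The Eif4ebp1 to Eif4ebp2 ratio was 1.02, 0.8998, 1.11 and 0.964 in control replicates 1 to 4 and 0.864, 0.878, 0.793 and 0.8596 in melatonin replicates 1 to 4, again without overlap (-0.22, exact p 0.0286, adjusted 0.0952). The Pik3ca to Pik3cb ratio was 3.67, 4.25, 3.503 and 4.72 in control replicates 1 to 4 and 5.46, 4.94, 4.79 and 5.197 in melatonin replicates 1 to 4, higher in all melatonin libraries (0.29, exact p 0.0286, adjusted 0.0952). Pik3ca, too, was apart between the groups by itself. After GC and length correction the groups of the first 2 ratios were still apart, at -0.33 and -0.20, and those of Pik3ca to Pik3cb overlapped (0.21, exact p 0.114). The Irs1 to Irs2 ratio lay between 1.096 and 1.298 in controls and between 0.901 and 1.16 under melatonin (-0.30, exact p 0.0571, adjusted 0.143). No pair passed after adjustment, and the other 6 had adjusted p of 0.629 to 0.971.

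**Figure D4:**
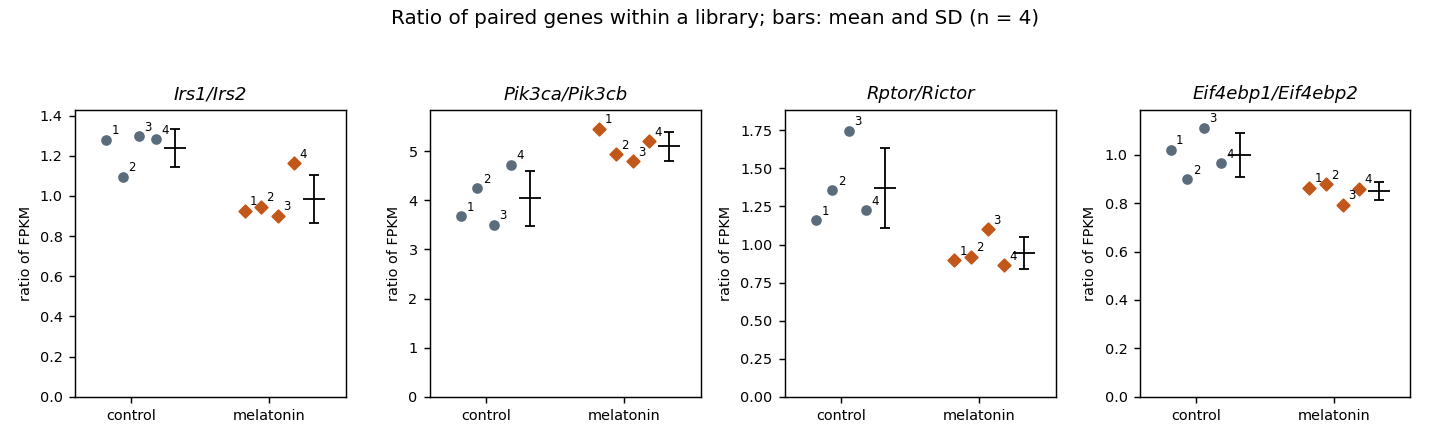
Ratio of FPKM within each library, numbered by replicate, for 4 of the 10 gene pairs, with group mean and SD; the axes start at 0. The control and melatonin points separate for Rptor to Rictor, Eif4ebp1 to Eif4ebp2 and Pik3ca to Pik3cb, and overlap for Irs1 to Irs2.

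Among the 28 genes whose groups overlapped, all 378 pairs were compared across the 8 libraries, and 1, Irs2 with Pik3r1, had a Pearson r with an adjusted p under 0.05, while its Spearman rho did not (Pearson r 0.96, exact permutation p 0.000124, adjusted 0.0469; Spearman rho 0.98, exact p 0.000397, adjusted 0.15). Without control replicates 1 and 3, the 2 libraries farthest from the median of Irs2, r was 0.95, and without control replicate 3 alone it was 0.94. How often genes outside the module correlate as closely over these 8 libraries was not tested, so the value is not shown to be particular to this pair. The next 4 pairs by p had none past adjustment. Irs2 with Eif4ebp2 had an r of 0.94 (exact p 0.000422, adjusted 0.0797; Spearman rho 0.93, exact p 0.00223, adjusted 0.304) that was 0.78 without control replicates 1 and 3. Irs1 with Irs2 had an r of 0.87 (exact p 0.00166, adjusted 0.183; Spearman rho 0.88, exact p 0.00724, adjusted 0.304) that was 0.67 without control replicates 3 and 4. Irs1 with Foxo1 had an r of 0.92 (exact p 0.00193, adjusted 0.183; Spearman rho 0.90, exact p 0.00456, adjusted 0.304), or 0.69 without those 2 libraries. Irs1 with Pik3r1 had an r of 0.90 (exact p 0.00285, adjusted 0.189; Spearman rho 0.86, exact p 0.0107, adjusted 0.338), which became 0.79 without the same 2 libraries. In Irs1, Irs2 and Pik3r1 control replicate 3 was the lowest control and control replicate 4 the highest, and melatonin replicate 4 was the highest melatonin library and replicate 1 the lowest.

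Control replicate 3 was the lowest of the 8 libraries for 12 of the 32 genes (Insr, Irs1, Irs2, Pik3ca, Pik3r1, Pik3ip1, Pdpk1, Foxo1, Foxo4, Rheb, Rictor and Eif4ebp2), where it was the lowest for 18.8% of all genes. It was the highest for 6 (Pik3r2, Pik3r3, Akt1, Sgk1, Rptor and Mlst8), beside 18.8% of all genes. Relative to the mean of the other controls it held 0.483 times the Irs2, 0.515 times the Irs1, 0.611 times the Pik3r1, 0.7302 times the Insr and 0.766 times the Pik3ip1. It held 1.94 times the Pik3r3 and 5.61 times the Sgk1. Control replicate 4 was the highest library for 10 of the 32, beside 13.1% of all genes, and melatonin replicate 4 for 8, beside 13.3%.

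**Figure D5:**
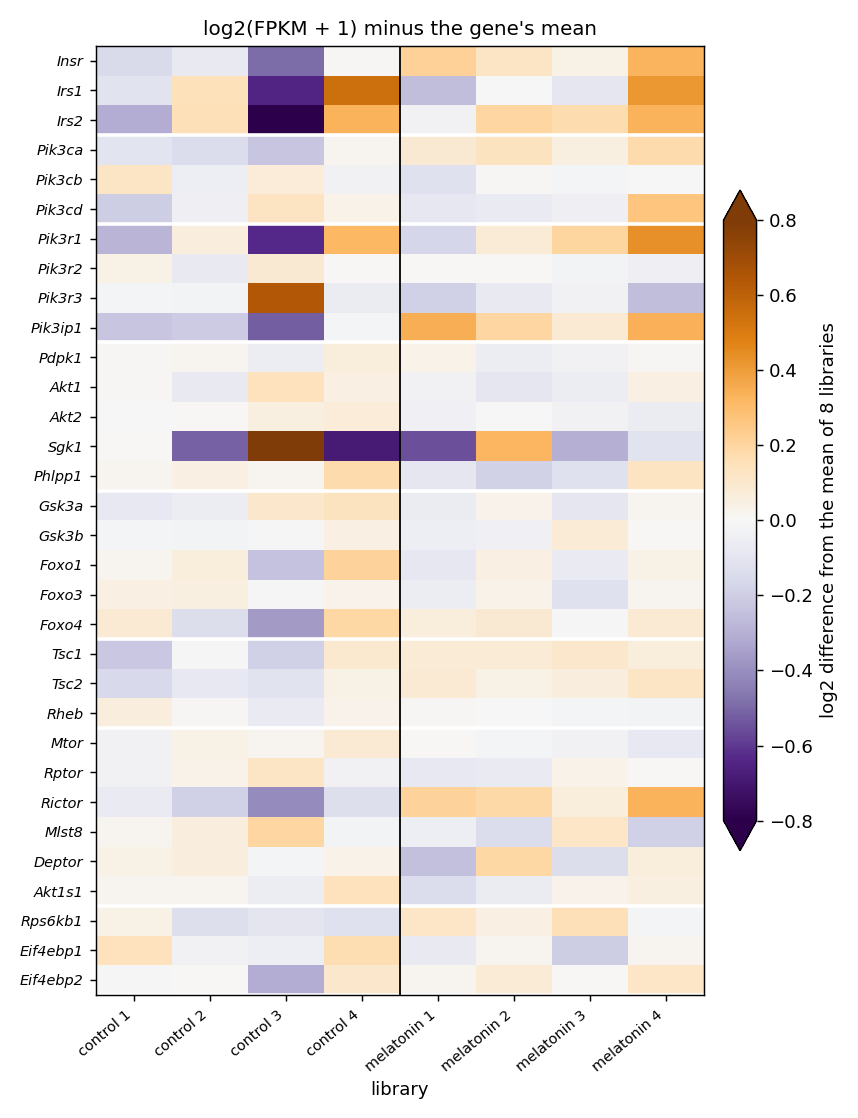
Deviation of each of the 32 tested genes from its mean over the 8 libraries (log2 of FPKM + 1; colours end at the limits of the bar, with arrows for values beyond). Control replicate 3 is low for Irs1, Irs2 and Pik3r1 and high for Sgk1 and Pik3r3.

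The pathway's neighbours, in 5 lists, likewise had no gene past the threshold. Their counts at an unadjusted p under 0.05 stand beside 9.4% of all genes higher and 9.74% lower, or 8.3% and 9.06% after GC and length correction, and their signs beside 47.5% of all genes positive. Groups did not overlap in 5.79% of all genes, higher, and in 5.94%, lower. The 2 genes named per list were taken for their smallest unadjusted p, which favours groups that do not overlap. Of 20 receptor tyrosine kinases and adaptors upstream of PI3K, all tested, 2 were higher and 1 lower at an unadjusted p under 0.05 (median difference 0.042; 3 higher and 0 lower after GC and length correction, median 0.011). Cblb, a ubiquitin ligase that limits receptor signalling, was at 4.42 ± 0.521 FPKM in controls and 5.48 ± 0.167 FPKM under melatonin (0.26, adjusted p 0.148 in limma). Grb2, the adaptor that links receptors to Ras, was at 22.3 ± 1.07 FPKM in controls and 19.97 ± 0.706 FPKM under melatonin (-0.15, adjusted p 0.172). In both the groups did not overlap, as in no other gene of this list. Of 21 phosphoinositide phosphatases and AKT modulators, 16 were tested, with 1 higher and 1 lower at that level (median 0.037; 3 higher and 1 lower after GC and length correction, median 0.077). Trib2, a pseudokinase that binds AKT, was at 88.8 ± 5.53 FPKM in controls and 57.2 ± 15.1 FPKM under melatonin (-0.66, adjusted p 0.144), with every melatonin value below every control value. No other gene of this list was apart. Tbc1d4, an AKT substrate in glucose transporter traffic, was at 7.13 ± 0.955 FPKM in controls and 8.79 ± 0.913 FPKM under melatonin (0.27, adjusted p 0.211).

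Of 38 genes that carry amino acid and energy signals to mTORC1, all tested, 8 were higher and 2 lower at an unadjusted p under 0.05, with 19 positive and 19 negative (median 0.00536; 6 higher and 2 lower after GC and length correction, median 0.032). Slc38a9, the lysosomal arginine sensor, was at 2.46 ± 0.194 FPKM in controls and 3.11 ± 0.0809 FPKM under melatonin (0.25, adjusted p 0.146 in limma). Lamtor1, which anchors the Ragulator complex to the lysosome, was at 12.7 ± 0.304 FPKM in controls and 10.96 ± 0.998 FPKM under melatonin (-0.20, adjusted p 0.173). In these 2 genes, too, the groups did not overlap, among 3 higher and 2 lower over the 38. Of 14 translation effectors below mTORC1, 10 were negative and 2, both lower, had an unadjusted p under 0.05 (median -0.056; 0 higher and 2 lower after GC and length correction, median -0.017). These were Eif4e, which encodes the cap-binding factor held by the 4E-BP repressors, at 14.9 ± 0.977 FPKM in controls and 12.97 ± 0.898 FPKM under melatonin (-0.19, adjusted p 0.188), and Rps6ka1, an S6 kinase of the ERK pathway, at 5.78 ± 0.838 FPKM in controls and 4.74 ± 0.552 FPKM under melatonin (-0.24, adjusted p 0.259). Of 18 FOXO target genes, 15 were tested, with 3 higher and 2 lower at that level (median 0.11; 4 higher and 2 lower after GC and length correction, median 0.053). Klf2, a transcription factor gene, was at 13.5 ± 1.54 FPKM in controls and 8.66 ± 1.45 FPKM under melatonin (-0.59, adjusted p 0.1196), lower in all melatonin libraries than in any control. Over these 15 genes, groups did not overlap in 1 higher and in 1 lower, Klf2 itself. Gadd45a, a growth arrest gene, was at 18.8 ± 1.92 FPKM in controls and 25.95 ± 4.57 FPKM under melatonin (0.43, adjusted p 0.158).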

How the data were processed

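RNA from 4 control and 4 melatonin libraries of mouse follicles was compared. Per the submitters' processing notes, alignment by the authors used HISAT2 2.0.5 and mm10. The counting tool, the annotation and strand handling were not given in the sources used here. Per the file headers, FPKM per gene is what the authors deposited, and the series table was identical to the sample files (0 differing cells). With exon lengths from GENCODE M21, which matched 54409 of 55157 identifiers, 98.7% to 98.9% of low values (up to 30 fragments) were whole numbers of fragments within 0.05. The text's fragment totals come from these steps, and limma-voom on the recovered fragments of 13748 tested genes (all tested members but Mlst8) served as an alternative.

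The 14738 genes averaging 1 FPKM or more were tested in R 4.3.3 with the moderated test of limma 3.58.1, with a trend on intensity, on log2(FPKM + 1), with group as the only term and with Benjamini-Hochberg adjustment over all genes tested. The test was checked on simulated data. GC and length trends were removed with natural splines of 5 degrees of freedom in each library, over the 14392 tested genes with values. Exon overlaps are from GENCODE M21. The 33 genes, the lists and the tests were chosen with earlier results of these data known, so none is independent support. The rule for named genes took all 33, with per-library values where groups or pair ratios did not overlap or the unadjusted p was under 0.05, and the 2 genes of each pathway list with the smallest unadjusted p. Irs1, Irs2, Pik3r1, Sgk1 and Foxo1 are given per library beyond that rule, chosen after their values were seen. Python 3.11.15, numpy 2.4.6, pandas 2.3.3 and scipy 1.17.1 were used for tables and permutation tests.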

Additional observations from a re-analysis of the deposited data

Results flagged for a closer look

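In 4 of 66 groups of 4 libraries (33 genes in 2 groups), 1 library lay far from the other 3 relative to the group's range. Chance flags about 1 group in 20. Sgk1 was at 21.5 FPKM in control replicate 3, where the nearest control was at 5.25 FPKM. Pik3r3 was at 3.39 FPKM in the same library, where the nearest control was at 1.78 FPKM. Pik3cd was at 19.7 FPKM in melatonin replicate 4, where the nearest melatonin library was at 15.7 FPKM. Gsk3b was at 13.2 FPKM in control replicate 4, where the nearest control was at 12.6 FPKM.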

How the results depend on the processing

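No gene of the module passed the threshold under any of the 18 alternatives, and the number higher at an unadjusted p under 0.05 was 4 to 7, against 6 in the fit reported. It was 6 with the replicate number as a block and 4 with the replicate block and GC and length correction together, an alternative chosen after the data were seen. Same-numbered libraries correlated at -0.10 to 0.15, and only replicate 3 correlated best with its own number. These values are not correlations of plain levels, which the 8 libraries largely share (median coefficient of variation 11.9% over all genes tested). With 4 numbers these correlations cannot settle whether the numbers pair the libraries, and the labels do not say. The number lower was 0, and 1 without melatonin replicate 3 (Mlst8) or without melatonin replicate 4 (Phlpp1), a range of 0 to 1 over the libraries left out. Of 571 differences of single genes under alternatives, 25 took the other sign, in 11 genes. GC and length correction turned Pik3r2 to 0.035, Gsk3a to 0.029, Gsk3b to -0.035 and Akt1s1 to 0.020, the same with the replicate block, and the log2 ratios of Akt1 to Akt2 to 0.034, Gsk3a to Gsk3b to 0.064 and Tsc1 to Tsc2 to -0.018. Quantile normalization turned Pik3r2 to 0.018, Akt1 to 0.00198 and Foxo1 to 0.067, array weights turned Irs1 to -0.029 and Gsk3b to -0.00406, and limma-voom turned Rheb to 0.00138. Leaving out 1 library gave -0.18 to 0.22 for Irs1, -0.043 to 0.089 for Pik3cd, -0.61 to 0.24 for Sgk1, -0.024 to 0.017 for Gsk3b, -0.11 to 0.037 for Foxo1 and -0.14 to 0.00938 for Deptor, and for log2 ratios -0.037 to 0.026 for Akt1 to Akt2, -0.63 to 0.20 for Sgk1 to Sgk3, -0.042 to 0.10 for Foxo1 to Foxo3 and -0.017 to 0.032 for Tsc1 to Tsc2. The cause of these turns was not tested. Counting error per library, from the implied fragments, ran from 0.669% (Foxo1) to 6.96% (Pik3r3).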
